A study of Mus musculus with 59 samples.

Results

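The genes described here are 33 markers of myelinating oligodendrocytes, chosen as a named list of oligodendrocyte and myelin genes and found by symbol among the 18088 genes of a table of normalized counts. All 33 were present, all passed a minimum mean normalized count of 10 and were among the 16599 genes tested, and the smallest read count of any of them in any library was 29. The list was drawn up with earlier results of these data known, so counts over it are descriptions. The libraries are stranded mRNA libraries from the prefrontal cortex of 59 C57BL/6J mice, wild type (WT) or heterozygous for a Shank3 knock-in (KI HT, here HT). Nursing dams passed on vehicle, fluoxetine or lithium in their milk for 3 weeks, from postnatal day 3 to day 24, and the pups were analysed at day 25. Each of the 6 arms of genotype and drug held 5 females and 5 males, except WT lithium with 4 females. All 59 column names of the table, those of WT mice included, begin with L68P, which has the form of an amino acid substitution; the sample labels do not define it or otherwise say which change the knock-in carries. They number the pups without naming litters, so p-values measure the spread between pups as if they were independent.

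Oligodendrocytes arise from dividing precursor cells, pass through a short newly formed stage and then wrap axons in a compacted, lipid-rich membrane that speeds conduction. In the rodent cortex myelin is laid down mainly after birth, with deep layers and the white matter ahead of upper layers, so the weeks of treatment fall in the period of its formation. The list spans proteins of compact myelin, surface and adhesion proteins, lipid enzymes, connexins, transcription factors, cytoskeletal proteins, receptors, genes of the early stage of differentiation and other genes enriched in these cells. In bulk tissue, fewer oligodendrocytes and less of an RNA per oligodendrocyte cannot be told apart.

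Libraries held 22984556 to 35969254 reads, and mitochondrial genes took 2.70% to 9.47% of them. Shank3, the targeted gene, had a median of 7616 normalized counts in WT vehicle (6022 to 8496) and 7756 in HT vehicle (5748 to 8248). These ranges overlap, and the counts do not separate the alleles, so they do not check the genotype labels. Shank3 had medians of 7542 in WT fluoxetine, 8047 in HT fluoxetine and 7926 in WT lithium, and was highest in HT lithium, at a median of 9993 (7366 to 11197). It rose under lithium in HT mice (0.43 ± 0.09 on the log2 scale, limma adjusted p = 0.000272), and the difference from WT lithium did not pass (0.35 ± 0.09, limma adjusted p = 0.137). Of all genes, 10.9% were called higher under lithium in HT mice, and fold changes there followed the GC content of genes (Spearman 0.472). A value for Shank3 with that trend removed is not given here. All 33 were well detected. Per kilobase of exon, myelin basic protein (Mbp) stood at 8588 ± 2343 normalized counts (SD, n = 10) in WT vehicle, rank 67 of 16588 genes. Mobp (2699), Cnp (2412), Mal (2235) and Cldn11 (2053) followed, and the cytoskeletal scaffold gene Anln was lowest at 37.4. The 33 genes together made up 0.18% to 0.83% of the normalized counts of a library, and Mbp alone gave 46.2% of their sum.

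The 33 genes varied widely between pups of the same group. Their pooled SD within groups had a median of 0.42 on the log2 scale, from 0.15 for Car2, a carbonic anhydrase also made by other cells, to 0.58 for Ppp1r14a, an inhibitor of myosin phosphatase. Over all genes tested the median was 0.18, over 13 precursor markers 0.25 and over 29 further oligodendrocyte genes 0.32. The mean deviation of the 33 genes from their own averages, called the myelin index below, ran from -0.93 in WT fluoxetine female 5 to 0.92 in WT vehicle male 4. In the first of these libraries all 33 genes lay below their own mean over the 59 libraries, and in the second all 33 lay above it. The median index by arm was 0.37 in WT vehicle, 0.13 in HT vehicle, -0.17 in WT fluoxetine, 0.05 in HT fluoxetine, 0.16 in WT lithium and -0.20 in HT lithium, and the ranges of all arms overlapped. By mean level, WT vehicle was the highest of the 6 arms for 28 genes, and HT lithium was the lowest for 22.

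**Figure D1:**
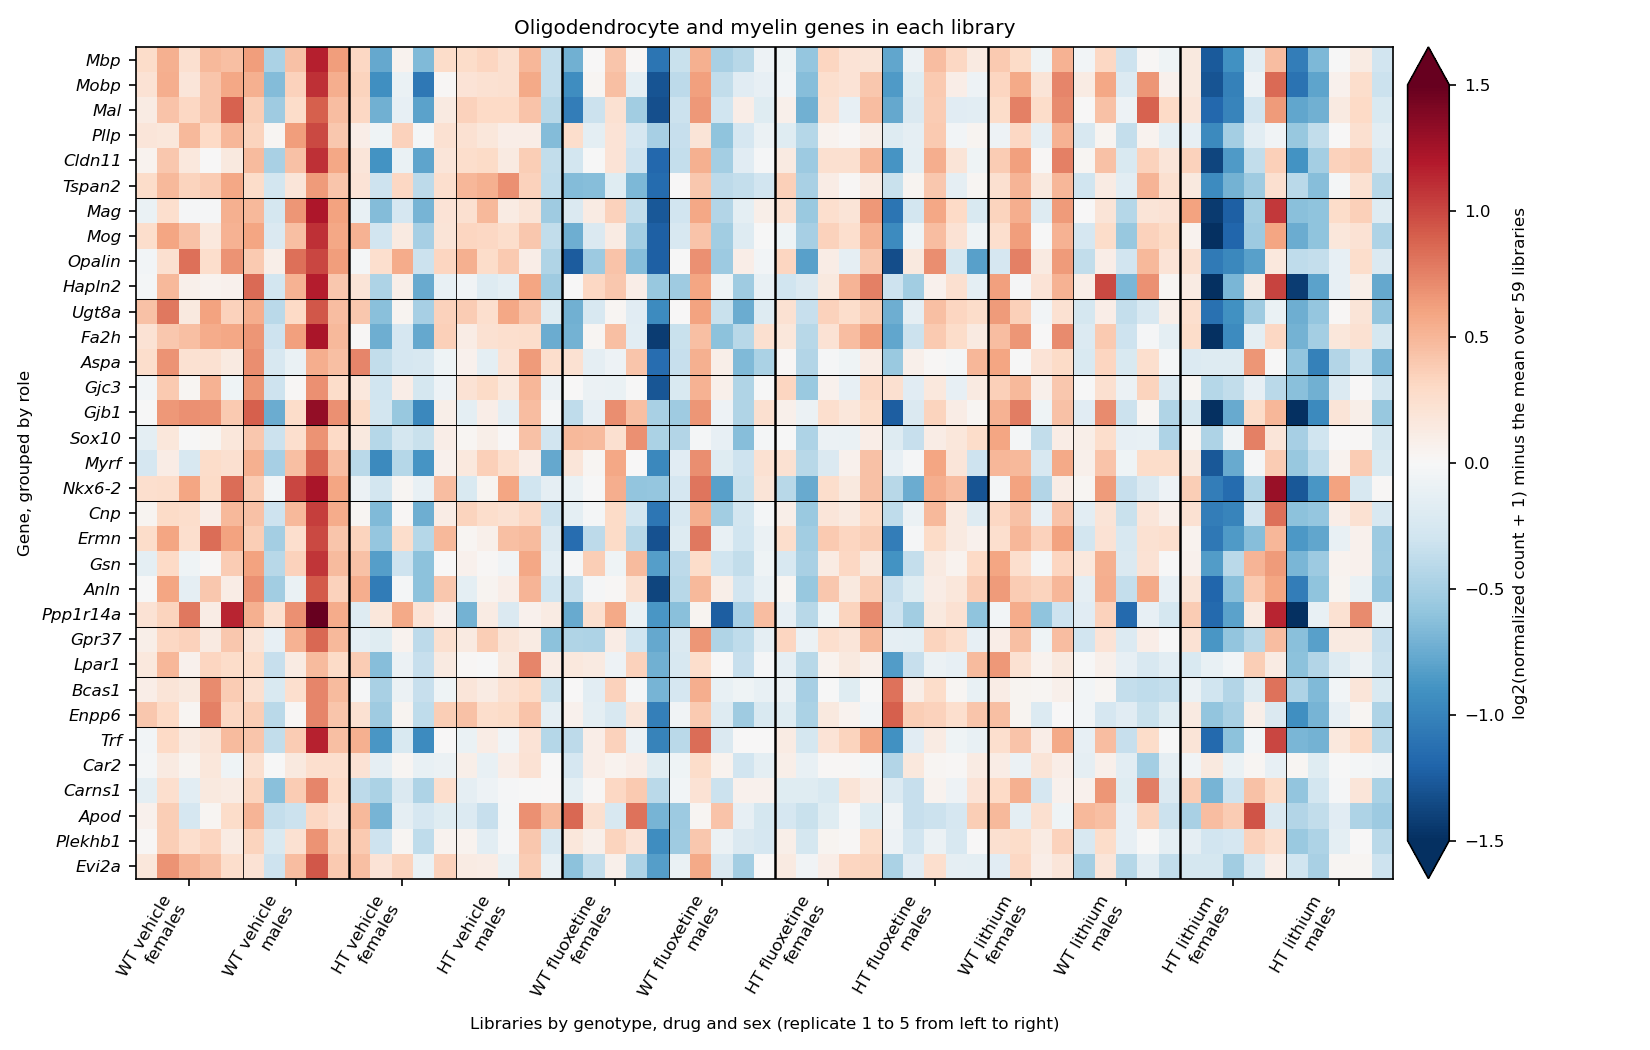
Heat map of the 33 genes (rows, grouped by role) in the 59 libraries (columns, by genotype, drug and sex). Colour is log2(normalized count + 1) minus the gene's mean over all libraries, and many columns are of 1 colour from top to bottom, from -0.93 on average in WT fluoxetine female 5 to 0.92 in WT vehicle male 4.

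Fluoxetine, a serotonin reuptake inhibitor, was compared with vehicle within each genotype. In WT mice all 33 genes lay lower under fluoxetine, with a median log2 change of -0.49, from -0.90 (Ppp1r14a) to -0.03 (Apod). By limma, 13 fell and none rose at an adjusted p under 0.05. Of all 16599 genes tested, 2.11% were called lower and 3.54% higher, and their median change was -0.01. The count of 13 became 7 without WT fluoxetine male 3 or WT vehicle male 4, and 8 without WT fluoxetine female 5, WT fluoxetine male 4 or WT vehicle female 4. The 5 blood markers (4 hemoglobin genes and Alas2) lay lower by a like amount, with a median of -0.51 in WT mice (limma adjusted p from 0.0983 to 0.170, each with an unadjusted p under 0.05) and of -0.53 in HT mice (limma adjusted p from 0.153 to 0.355). Their summed level ran from 8142 to 12677 normalized counts in WT vehicle and from 1879 to 12271 in WT fluoxetine, no marker was at 0 in every library, and their part in the result was not tested. Fold changes and differences here and below are on the scale of log2(normalized count + 1), adjusted by Benjamini-Hochberg over all genes tested.

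Among the 6 compact myelin genes, 4 fell. The tetraspanin gene Tspan2 had 2551, 3943 and 4788 normalized counts (lowest, median and highest of 10) in WT vehicle and 1386, 2368 and 4082 in WT fluoxetine. It changed by -0.72 ± 0.15 (SE, limma adjusted p = 0.00236), and 7 fluoxetine libraries lay below the lowest vehicle library. Pllp, which encodes the myelin protein plasmolipin, had 919, 1156 and 1789 in vehicle and 592, 782 and 1076 in fluoxetine, a change of -0.55 ± 0.12 (limma adjusted p = 0.00431), with all 10 fluoxetine libraries below the vehicle median. Mbp, which holds the inner faces of the myelin membrane together, had 37446, 71597 and 116779 in vehicle and 24323, 45211 and 74837 in fluoxetine. Mbp fell by 36.4% (-0.65 ± 0.20, limma adjusted p = 0.0442), with 9 of 10 fluoxetine libraries below the vehicle median and both ranges overlapping. The sorting protein gene Mal also fell (-0.67, limma adjusted p = 0.0479), while Mobp (-0.62) and the tight junction gene Cldn11 (-0.50) did not pass.

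Of the 4 surface and adhesion genes, Mog and Opalin fell. Mog, a glycoprotein of the outermost myelin layer, had 1099, 1788 and 2734 normalized counts in WT vehicle and 543, 1089 and 1712 in WT fluoxetine (-0.76 ± 0.20, limma adjusted p = 0.0202). All 10 fluoxetine libraries lay below the vehicle median and 5 below the lowest vehicle library. Opalin changed by -0.79 (limma adjusted p = 0.0205). The axon-contact glycoprotein gene Mag (-0.49) and the nodal matrix gene Hapln2 (-0.37) did not pass. Of the lipid enzymes, Ugt8a and Fa2h fell and Aspa (-0.45) did not pass. Ugt8a, which makes the galactolipids of myelin, had 1384, 2507 and 3496 in vehicle and 951, 1576 and 2782 in fluoxetine. Its change was -0.69 ± 0.18 (limma adjusted p = 0.0157), with 9 fluoxetine libraries below the vehicle median. Fa2h, which hydroxylates the fatty acids of those lipids, changed by -0.74 (limma adjusted p = 0.0414).

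The remaining calls came from several roles. Evi2a, a gene of a transmembrane protein enriched in oligodendrocytes, had the smallest adjusted p of the 33. It had 224, 372 and 535 normalized counts in WT vehicle and 156, 229 and 414 in WT fluoxetine (-0.62 ± 0.12, limma adjusted p = 0.00136), and 5 fluoxetine libraries were below the lowest vehicle library. Evi2a (chr11:79526560-79530609, GRCm38, minus strand) lies inside an intron of Nf1 on the opposite strand and shares exons with the annotated Evi2 gene on its own strand. The kit marks strand, but the strand setting of the counting is not given in the sources used here, so its reads may include some of Nf1 or Evi2. Gpr37, an orphan receptor that restrains oligodendrocyte differentiation, had 640, 879 and 1270 in vehicle and 408, 552 and 1107 in fluoxetine (-0.56 ± 0.15, limma adjusted p = 0.0172). For Gpr37, 8 fluoxetine libraries lay below the lowest vehicle library, and WT fluoxetine male 2 was the high value of its arm. The cytoskeletal genes Ppp1r14a (-0.90, limma adjusted p = 0.0243) and Ermn (-0.70, limma adjusted p = 0.0289) fell, as did Enpp6, a choline phosphodiesterase gene of newly myelinating cells (-0.47, limma adjusted p = 0.0370). Both connexin genes, Gjb1 (-0.48) and Gjc3 (-0.37), lay lower and did not pass.

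The transcription factors of the lineage did not pass. Sox10 had 658, 927 and 1314 normalized counts in WT vehicle and 528, 806 and 1326 in WT fluoxetine, a change of -0.14 ± 0.13 (limma adjusted p = 0.608). Myrf, which turns on myelin genes in differentiating cells, had 575, 969 and 1489 in vehicle and 414, 820 and 1316 in fluoxetine (-0.19 ± 0.19, limma adjusted p = 0.635). Vehicle and fluoxetine ranges of both genes overlapped over most of their length. Nkx6-2 stood at -0.65 and also did not pass.

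**Figure D2:**
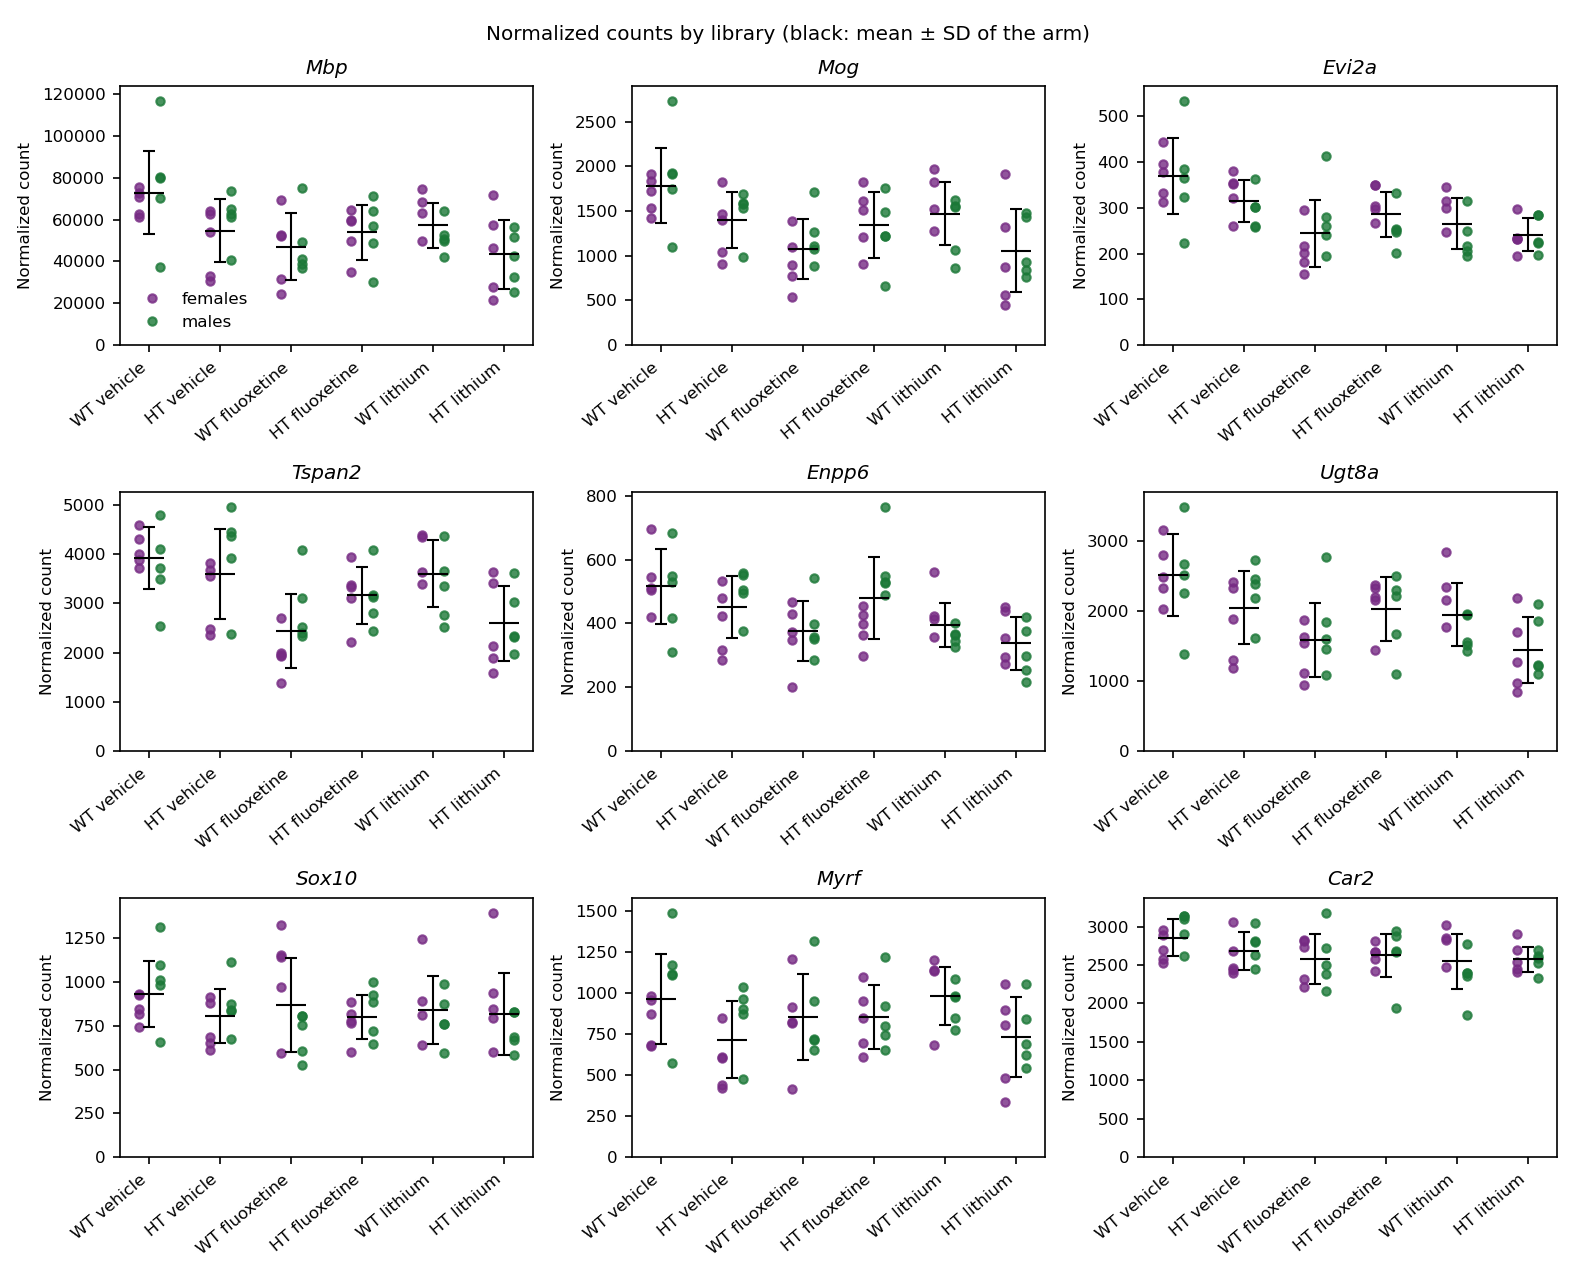
Normalized counts of 9 of the 33 genes in each library, by arm (points are libraries, females and males marked separately, black lines are arm means ± SD, each axis from 0). Mbp, Mog, Evi2a, Tspan2, Enpp6 and Ugt8a sit lower in WT fluoxetine than in WT vehicle with overlapping points, and Sox10, Myrf and Car2 shift less.

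Promoter sequences were examined for 2 short motifs, since genes of this list moved together. RefSeq promoters (GRCm38.p6, 250 bases before to 50 after each start) were at hand for 24 of the 33 genes, in 35 promoters. The motif of the myelin regulator MYRF was searched as CTGGCAC or CTGGTAC and that of SOX factors as AACAAAG or AACAATG, each on both strands. The MYRF letters were found in 20% of the 35 promoters (7, of 6 genes: Cnp, Hapln2, Lpar1, Mag, Mog and Opalin) and in 7.1% of all 32851 promoters. The SOX letters were found in 14.29% of the 35 (5, of Apod, Cnp, Enpp6, Lpar1 and Mobp) and in 9.36% of all. These are matches of letters, not known sites. Both Mag promoters with a match overlap and hold the same letters, 68 and 9 bases before their starts, so this match was counted in each. A share by gene was not computed over all promoters. The 250 bases before the start are shown for 3 genes that fell under fluoxetine in WT mice, 1 with each kind of match and 1 with neither. Mog (chr17:37023399-37023648, minus strand) holds a MYRF match 83 bases before its start and Enpp6 (chr8:46986637-46986886, plus strand) a SOX match 220 bases before it, both in capitals. Ugt8a (chr3:125938653-125938902, minus strand) holds neither.
Mog: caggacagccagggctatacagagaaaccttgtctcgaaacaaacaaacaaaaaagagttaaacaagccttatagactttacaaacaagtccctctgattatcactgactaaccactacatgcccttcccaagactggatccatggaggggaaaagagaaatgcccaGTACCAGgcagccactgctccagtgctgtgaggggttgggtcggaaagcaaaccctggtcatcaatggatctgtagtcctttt
Enpp6: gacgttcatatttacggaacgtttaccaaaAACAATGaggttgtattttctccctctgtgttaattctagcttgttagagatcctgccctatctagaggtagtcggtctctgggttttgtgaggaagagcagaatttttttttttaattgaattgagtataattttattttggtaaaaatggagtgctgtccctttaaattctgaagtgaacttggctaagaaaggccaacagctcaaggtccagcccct
Ugt8a: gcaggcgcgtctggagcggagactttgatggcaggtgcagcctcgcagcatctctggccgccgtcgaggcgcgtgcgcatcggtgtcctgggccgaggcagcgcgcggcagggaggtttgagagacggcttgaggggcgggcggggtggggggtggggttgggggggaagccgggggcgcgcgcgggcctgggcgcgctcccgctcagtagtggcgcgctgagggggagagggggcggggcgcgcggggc
So genes that fell are found with and without these letters in this window. Of the genes that fell, Mog, Opalin and Enpp6 held a match. Tspan2, Pllp, Mal, Ugt8a, Gpr37, Ppp1r14a and Ermn held none, and Mbp, Fa2h and Evi2a had no promoter at hand. The other genes with a match, Cnp, Hapln2, Lpar1, Mag, Apod and Mobp, did not pass.

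In HT mice fluoxetine left no gene of the list past the threshold. By limma 0 of 33 were called, 0 had an unadjusted p under 0.05, and edgeR and DESeq2 on the recovered reads also called 0; of all genes, 0.277% were called in either direction. The median change was -0.01, with 14 genes above 0 and 19 below. Mbp had 30431, 61966 and 73514 normalized counts in HT vehicle and 30325, 58203 and 71224 in HT fluoxetine (-0.01 ± 0.20, limma adjusted p = 0.992). Mog (-0.08 ± 0.20) and Sox10 (-0.00 ± 0.13) also lay near 0. The 3 genes with the smallest p were Myrf (0.29 ± 0.19, limma adjusted p = 0.574), Opalin (-0.33 ± 0.21, adjusted p = 0.575) and the lysophosphatidic acid receptor gene Lpar1 (-0.16 ± 0.13, adjusted p = 0.662).

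The difference between the fluoxetine effects in HT and WT mice was tested as an interaction. It was above 0 for 32 of 33 genes, with a median of 0.54, and before adjustment 13 had a p under 0.05. The share of all genes at an unadjusted p under 0.05 is not given here or below, so such counts have no background. None of the 33 passed by limma (smallest adjusted p 0.947), nor by edgeR or DESeq2, and 0% of all genes did. Mbp stood at 0.64 ± 0.29, Mog at 0.68 ± 0.29 and Myrf at 0.48 ± 0.27. A difference in the fluoxetine response between genotypes was therefore not shown for any of them. The WT contrast starts from WT vehicle, the arm with the highest median myelin index.

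**Figure D3:**
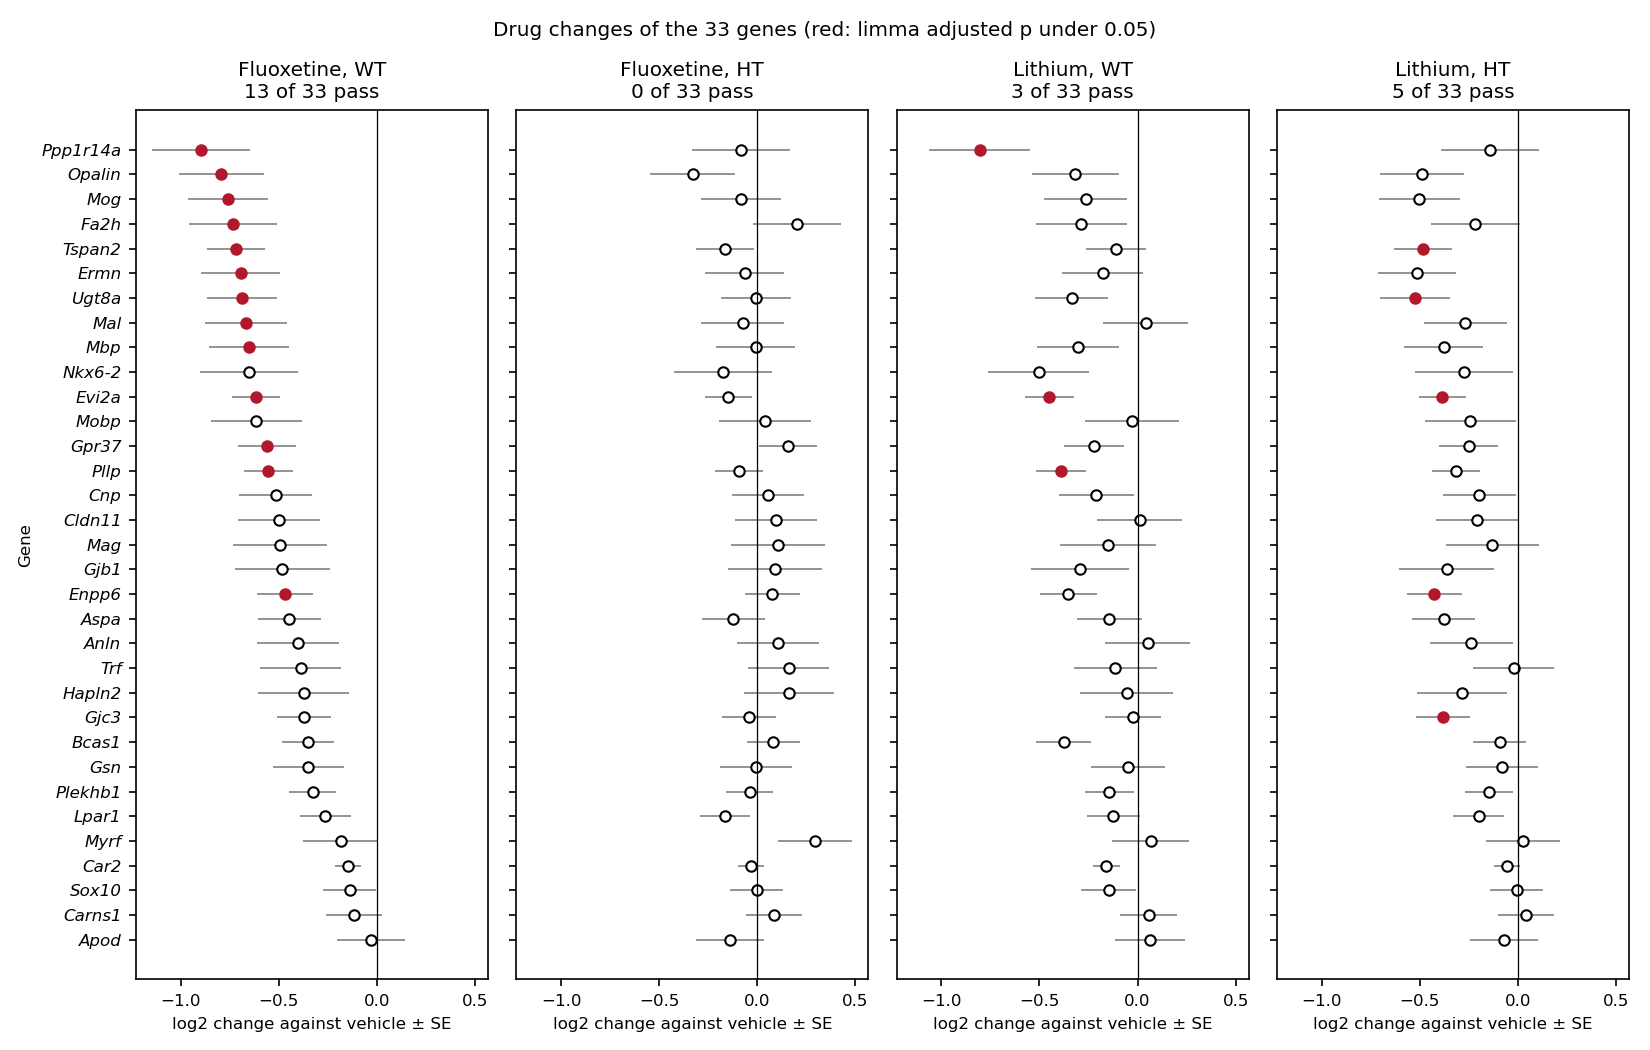
Log2 change of each of the 33 genes (points, with SE) in the 4 comparisons of a drug with vehicle, ordered by the change under fluoxetine in WT mice; red points passed a limma adjusted p of 0.05. In WT mice all 33 lie below 0 under fluoxetine and 13 are red, in HT mice the fluoxetine points straddle 0, and lithium gives 3 red points in WT and 5 in HT mice.

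Lithium, a drug for bipolar disorder whose known targets include glycogen synthase kinase, was compared with vehicle in the same way, and the drugs were not tested against each other. In WT mice 3 of 33 fell and none rose by limma, where 5.11% of all genes were called lower and 7.66% higher; the median change was -0.15, with 27 below 0. Evi2a had 195, 250 and 346 normalized counts in the 9 WT lithium libraries (-0.45 ± 0.12, limma adjusted p = 0.0110). All 9 lay below the WT vehicle median of 372. Ppp1r14a had 89.7, 122 and 246 in vehicle and 36.5, 73.9 and 122 in lithium (-0.81 ± 0.26, limma adjusted p = 0.0298), with 7 of 9 below the lowest vehicle library. Pllp had 702, 853 and 1286 in lithium (-0.39 ± 0.13, limma adjusted p = 0.0349), 8 of 9 of them below the vehicle median. Mbp (-0.30 ± 0.21), Mog (-0.27 ± 0.21), Sox10 (-0.15 ± 0.14) and Myrf (0.07 ± 0.20) did not pass. The count of 3 became 1 without any of WT lithium female 3, WT lithium male 3, WT vehicle female 3, WT vehicle female 5 or WT vehicle male 4, and 5 without WT vehicle male 2.

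In HT mice 5 of 33 fell under lithium and none rose by limma, where 9.43% of all genes were called lower and 10.9% higher. The median change was -0.24, with 31 below 0. Tspan2 had 2356, 3749 and 4964 normalized counts in HT vehicle and 1596, 2321 and 3629 in HT lithium (-0.48 ± 0.15, limma adjusted p = 0.0159), with 6 lithium libraries below the lowest vehicle library. Evi2a had 258, 312 and 381 in vehicle and 194, 233 and 298 in lithium (-0.39 ± 0.12, limma adjusted p = 0.0171), with 7 below the lowest vehicle library. Enpp6 had 285, 488 and 557 in vehicle and 217, 327 and 452 in lithium (-0.43 ± 0.14, limma adjusted p = 0.0254). In all 3 of these genes the 10 lithium libraries lay below the vehicle median. Ugt8a (-0.52 ± 0.18, limma adjusted p = 0.0310) ran from 848 to 2186 under lithium and from 1191 to 2737 under vehicle. The connexin gene Gjc3 (-0.38 ± 0.14, limma adjusted p = 0.0397) ran from 490 to 824 under lithium and from 656 to 1145 under vehicle, and 10 of 10 lithium libraries of both lay below the vehicle median. Mog (-0.50 ± 0.20, limma adjusted p = 0.0752) and Mbp (-0.38 ± 0.20, limma adjusted p = 0.189) did not pass, and Sox10 (-0.01 ± 0.13) and Myrf (0.03 ± 0.19) stayed near 0.

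Fold changes followed GC content in the HT lithium comparison (Spearman 0.472 across 16588 genes, which are not independent), against 0.149 for fluoxetine in WT mice. With the trend on GC content removed within each library, the 5 genes still lay below 0, with changes of -0.38 for Tspan2, -0.36 for Ugt8a, -0.32 for Enpp6, -0.30 for Evi2a and -0.30 for Gjc3, and none passed (limma adjusted p from 0.108 for Tspan2 to 0.232 for Ugt8a) and Pllp did (-0.37, adjusted p = 0.0269). The count of 5 became 2 without HT lithium female 2, HT lithium male 1, HT lithium male 2 or HT vehicle female 1, 3 without HT lithium female 3, HT vehicle female 5 or HT vehicle male 4, and 8 without HT lithium female 1.

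The called sets overlapped in part. Evi2a fell in all 3 comparisons. The 3 genes of lithium in WT mice were all among the 13 of fluoxetine in WT mice (100% and 23.1%), which share the WT vehicle libraries. Of the 5 genes of lithium in HT mice, 4 (80% of 5 and 30.8% of 13) were called for fluoxetine in WT mice, with no library in common. Both comparisons come from 1 fit with a shared estimate of the spread of each gene, so the calls are not independent. Of all genes, 2.11% were called lower under fluoxetine in WT mice, 5.11% under lithium in WT mice and 9.43% under lithium in HT mice. The share of all genes called lower in more than 1 of these is not given here, so the overlaps have no background. Pooled SDs within groups were 0.28 for Evi2a, 0.33 for Enpp6, 0.34 for Tspan2 and 0.41 for Ugt8a, against a median of 0.42 over the 33. For the difference between the lithium effects in HT and WT mice, limma, edgeR and DESeq2 called 0 of the 33, with 0 at an unadjusted p under 0.05 by limma (0.00602% of all genes called).

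HT and WT mice were then compared within each drug, the first of these asking what the knock-in does without drug. Under vehicle all 33 genes lay lower in HT mice, at a median of -0.35, but limma called 0 of 33 (0% of all genes). Before adjustment 13 had a p under 0.05, and the smallest adjusted p was 0.662. The 3 with the smallest p were Pllp (-0.35 ± 0.12), Fa2h (-0.62 ± 0.23) and Bcas1, a gene of early myelinating cells (-0.35 ± 0.13). Fa2h had 571, 1018 and 1656 normalized counts in WT vehicle and 415, 741 and 907 in HT vehicle, with all 10 HT libraries below the WT median. Mbp stood at -0.42 ± 0.20, Myrf at -0.45 ± 0.19, Mog at -0.35 ± 0.20 and Sox10 at -0.20 ± 0.13. Under lithium 31 of 33 lay lower in HT mice (median -0.42) and limma again called 0 (0% of all genes), with 20 at an unadjusted p under 0.05. Gjc3 (-0.51 ± 0.14, limma adjusted p = 0.169), Tspan2 (-0.52 ± 0.15, adjusted p = 0.193) and Mal (-0.70 ± 0.22, adjusted p = 0.248) came nearest. Under fluoxetine 26 of 33 lay higher in HT mice (median 0.16), 0 were called (0% of all genes) and 5 had an unadjusted p under 0.05. Tspan2 (0.41 ± 0.15), Gpr37 (0.38 ± 0.15) and Enpp6 (0.35 ± 0.14) had the smallest p there, with limma adjusted p of 0.330 to 0.352. edgeR and DESeq2 called 0 of the 33 in each of these 3 comparisons. Fold changes followed GC content across 16588 genes, with a Spearman of -0.421 under vehicle, 0.358 under lithium and -0.223 under fluoxetine. The counts of 13, 20 and 5 at an unadjusted p under 0.05 are given without the share of all genes at that p.

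Sexes were compared for each effect. Averaged over arms, limma, edgeR and DESeq2 called 0 of the 33 between females and males, with 0 at an unadjusted p under 0.05 by limma and a median difference of 0.00 (0.217% of all genes called). Under fluoxetine in WT mice 31 genes lay below 0 in females and all 33 in males. In HT mice 8 lay below 0 in females (median 0.14) and 29 in males (median -0.19), so the median of -0.01 over both sexes averages changes of opposite sign. Under lithium 15 lay below 0 in WT females and 31 in WT males, and 21 in HT females and all 33 in HT males. All HT lithium males also lay below all HT vehicle males in the mean of markers of cortical layer 6b and claustrum (below). The part of this in the sex pattern was not tested. None of the 33 passed a limma test of the difference between the sexes in a drug or genotype effect, with 0 to 3 of them at an unadjusted p under 0.05. Of all genes, 8.66% were called in the sex difference of the fluoxetine effect in WT mice, 0% in HT mice, 0% and 0.012% in that of the lithium effect in WT and HT mice, and 0.00602% in that of the genotype effect under vehicle. Sox10 came nearest. Its 5 WT females had 743, 843 and 930 normalized counts (lowest, median, highest) under vehicle and 594, 1140 and 1326 under fluoxetine, and its 5 WT males had 658, 1011 and 1314 under vehicle and 528, 753 and 808 under fluoxetine. The changes were 0.24 in females and -0.52 in males, a difference of 0.75 ± 0.27 (limma adjusted p = 0.0638). Sox10 passed by edgeR (0.83, adjusted p = 0.0424), by DESeq2 (0.82, adjusted p = 0.0226) and after quantile normalization (0.77, limma adjusted p = 0.0492), and without WT fluoxetine female 5 or WT vehicle male 2. edgeR and DESeq2 called no other member in these tests. Fold changes in this comparison followed GC content (Spearman 0.503 across genes). Sox10 did not pass with that trend removed, nor in the other alternative settings fitted with both sexes. Olfactory bulb markers, relative to their mean over all libraries, stood at 3.78, 2.62 and 4.34 in WT fluoxetine females 1, 2 and 4. They stood at 0.12 in females 3 and 5 of that arm and at 0.10 to 1.48 in its males. Their part in the sex difference was not tested.

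Other genes of the lineage were counted from lists fixed with earlier results known. Of 29 further oligodendrocyte genes, 25 lay below 0 under fluoxetine in WT mice (median -0.21) and 2 fell, Tmem88b (-0.64) and the orphan receptor gene Gpr62 (-0.56). Of all genes tested, 2.11% were called lower in that comparison. Gpr62 also fell under lithium in WT mice (-0.57). Of 12 markers of newly formed oligodendrocytes and 13 of precursors, none passed under fluoxetine in WT mice by limma, with medians of -0.03 and -0.10 and 1 and 6 genes at an unadjusted p under 0.05. Under lithium in HT mice 2 of the 12 newly formed markers rose, Gpr17 (0.35) and Neu4 (0.28), 1 fell, Rras2 (-0.25), and 1 of the 13 precursor markers rose, Cspg4 (0.48). These counts stand beside 10.9% of all genes called higher and 9.43% lower, and the medians of both lists were 0.06 and 0.03. Of 18 genes of sterol synthesis, which supplies the cholesterol of the myelin membrane, all lay below 0 under fluoxetine in WT mice (median -0.30) and 12 fell, led by Insig1 (-0.36), Sqle (-0.35) and Hmgcs1 (-0.38). Under lithium 5 fell in WT mice and 1, Idi1 (-0.26), in HT mice. Beside these sterol counts, 2.11% of all genes were called lower under fluoxetine in WT mice. Under lithium 5.11% were called lower in WT and 9.43% in HT mice.

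Markers of some other cells moved with the myelin index across libraries, and other lists did so less. Of the 10 libraries with the lowest index (5 of them HT lithium), 9 were below 0 for 6 markers of cortical layer 6b and claustrum, and 10 were above 0 for 6 markers of upper-layer neurons. Of the 10 with the highest index (5 of them WT vehicle), 9 were above 0 for the layer 6b and claustrum markers and 8 below 0 for the upper-layer markers. Newly formed and precursor markers were each below 0 in 9 of the 10 lowest, and above 0 in 9 and 7 of the 10 highest. Deep-layer neuron, olfactory bulb and choroid plexus markers were below 0 in 9, 8 and 8 of the 10 lowest. They were above 0 in 6, 7 and 6 of the 10 highest. Blood and sterol synthesis genes were below 0 in 3 and 5 of the 10 lowest, and above 0 in 8 and 6 of the 10 highest. Astrocyte, striatum, microglial and endothelial markers were below 0 in 5, 5, 3 and 4 of the 10 lowest. In the 10 highest they were below 0 in 4, 5, 5 and 5. The summed layer 6b and claustrum markers ran from 2902 to 4767 in WT vehicle, 2338 to 5348 in WT fluoxetine, 3110 to 4436 in HT vehicle and 2649 to 3509 in HT lithium, and no marker was at 0 in every library. Under fluoxetine in WT mice 4 of these 6 markers lay below 0 and none passed by limma (1 at an unadjusted p under 0.05). With the layer 6b and striatum levels as covariates, 17 of the 33 genes fell. Under lithium in HT mice 5 of the 6 lay below 0 and 1, Gnb4, fell (-0.26). Of the 6 upper-layer markers 4 lay above 0 (median 0.06), and 1, Cux2, rose (0.42). With the same covariates 4 of the 33 fell. By sex, the mean log2 deviation of the 6 layer 6b and claustrum markers ran from -0.63 to -0.22 in HT lithium males. In HT vehicle males it ran from -0.11 to 0.21, so these ranges did not overlap. HT females had a median of 0.11 (-0.08 to 0.16) under lithium and -0.13 (-0.30 to 0.45) under vehicle. Olfactory bulb markers lay below 0 for 8 of 8 genes in both comparisons (medians -0.77 and -1.06), with 0 called by limma and 0 at an unadjusted p under 0.05 in either, and had sums of 473 to 9650 in WT vehicle, 411 to 18114 in WT fluoxetine, 398 to 12953 in HT vehicle and 304 to 12598 in HT lithium. With the bulb level as a covariate 14 genes fell under fluoxetine in WT mice and 4 under lithium in HT mice. Of the markers of other glia and vessels, 4 of 12 astrocyte, 3 of 12 microglial and 2 of 10 endothelial markers rose under lithium in HT mice and none fell, where 10.9% of all genes were called higher and 9.43% lower. Their medians were 0.17, 0.15 and 0.11, and their part in the result was not tested. The covariates are RNA levels of markers in the same libraries, and the upper-layer markers were not used as one. The share of all genes called in the fits with covariates is not given here. The part of tissue sampled in the differences was not tested.

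**Figure D4:**
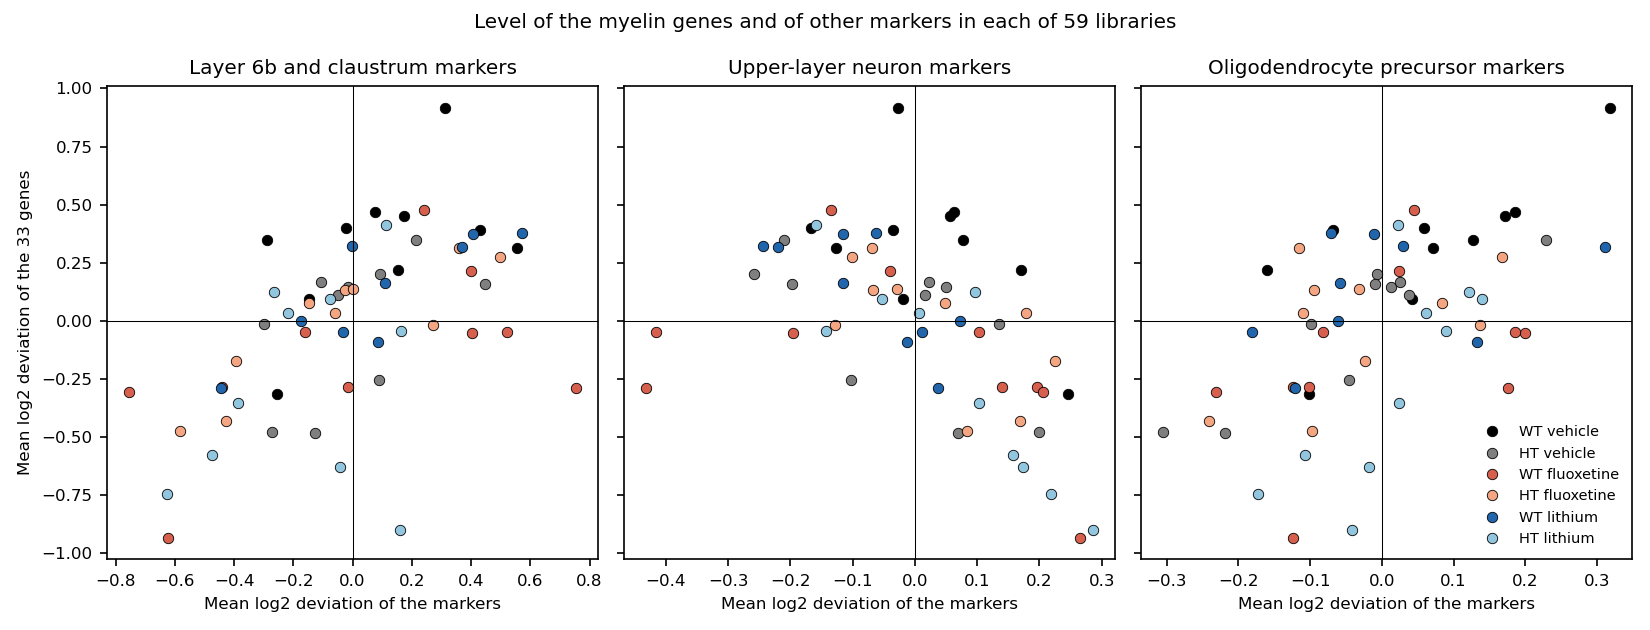
Myelin index of each library (vertical axis, mean log2 deviation over the 33 genes) against the mean log2 deviation of layer 6b and claustrum, upper-layer and precursor markers (horizontal axes), coloured by arm. Of the 10 libraries with the lowest index, 9 lie left of 0 for layer 6b and claustrum and all 10 lie right of 0 for upper-layer markers.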

How the data were processed

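RNA of the prefrontal cortex of 59 mice was sequenced with a stranded mRNA kit, per the labels' protocols. The authors deposited a signal per gene and library, the read count over a library size factor (a normalized count). Salmon 0.11.2, DESeq2 1.19.11, R 3.6.0 and GRCm38 are named in the submitters' processing notes; their settings and the gene filter are not given in the sources used here. Whole reads were recovered for 100.0% of values within 0.001, and 0 columns were left unused. Totals were 22984556 to 35969254 reads per library.

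Normalized values were tested with limma 3.58.1 (R 4.3.3; trend, robust) on log2(value + 1), since the plan used limma for normalized counts and edgeR for raw ones. The fit covered 16599 genes with a mean of at least 10, with 12 group means and 47 residual degrees of freedom. Tests were two-sided, with Benjamini-Hochberg adjustment within each of 15 comparisons and a threshold of 0.05. edgeR 4.0.16 and DESeq2 1.42.0 on the recovered reads were alternatives, and the limma, edgeR and DESeq2 steps were tested on simulated data. The members, the lists and the tests were chosen with earlier results of these data known. Always given in full were Mbp, Mog, Sox10 and Myrf, and in each comparison of arms up to 5 members with the smallest adjusted p past the threshold or, with none, the 3 with the smallest p. No duplicate library was found among replicates. A gene of the further oligodendrocyte list is not reported here and is left out of its counts. Symbols, coordinates and exon lengths came from GENCODE M21.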

Additional observations from a re-analysis of the deposited data

Results flagged for a closer look

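A library was picked out where it stood far from the 3 or 4 others of its group of genotype, drug and sex. This held for 15 of 216 groups of values examined (18 quantities in 12 groups), and chance alone picks out about 1 in 20. All are given as values.

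WT lithium female 3 had a myelin index of -0.000757, where the other 3 of its group had 0.316 to 0.378, and its Myrf stood at 685 normalized counts against 1133 to 1203. HT vehicle male 5 was low for 4 genes: Fa2h at 424 (others 764 to 848), Mal at 3495 (others 5723 to 6258), Mog at 988 (others 1533 to 1685) and Pllp at 572 (others 961 to 1053). WT fluoxetine male 2 was high for Bcas1, at 3063 against 1763 to 2008, and for Gpr37, at 1107 against 510 to 638.

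The other 7 came from a library each. Bcas1 was 3691 in HT lithium female 5 (others 1547 to 1968), Enpp6 was 766 in HT fluoxetine male 1 (others 490 to 550.1) and Lpar1 was 1336 in HT vehicle male 4 (others 797 to 886). Gjc3 was 333 in WT fluoxetine female 5 (others 755 to 815), and Ugt8a was 1447 in HT fluoxetine female 2 (others 2156 to 2369). Opalin was 413 in WT fluoxetine female 3 (others 128 to 210), and Ppp1r14a was 246 in WT vehicle male 4 (others 98.5 to 134).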

How the results depend on the processing

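Each comparison was refitted under 15 alternative settings and with each library left out. In the 15 settings the 13 genes that fell under fluoxetine in WT mice became 8 when the fit held only the groups compared, 7 in females only and 1 in males only, where a group has 5 libraries; elsewhere the count was 11 to 17. The 3 that fell under lithium in WT mice became 0 in females only and 0 in males only, and 5 with only the groups compared, with layer 6b and striatum covariates and with DESeq2. The 5 that fell under lithium in HT mice became 3 with only the groups compared, 1 in females only, 1 with the GC trend removed and 1 with the GC trend removed and the replicate block. The count of genes with a higher fluoxetine response in WT females than males was 0 and became 1 (Sox10) after quantile normalization, with edgeR and with DESeq2. Lpar1 under fluoxetine in HT mice turned from -0.16 to 0.054 in females only. Fewer libraries enter the fits by sex, and elsewhere the cause was not tested. The share of all genes called in each alternative fit is not given here, so these counts do not compare the sexes or the settings.

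Leaving out each library in turn gave 7 to 16 genes lower under fluoxetine in WT mice, 1 to 5 under lithium in WT mice, 2 to 8 under lithium in HT mice and 0 to 1 for the sex difference. Median changes ran from -0.61 to -0.39, from -0.22 to -0.10 and from -0.34 to -0.12 in the same 3 drug comparisons, and from -0.41 to -0.28 for HT against WT under vehicle. Among single genes, Gjc3 and Ugt8a under lithium in HT mice lost their call in 10 and 9 of 20 such fits and Enpp6 in 5, and under lithium in WT mice Pllp lost it in 8 and Ppp1r14a in 6 of 19. The calls of Evi2a in all 3 comparisons, and of Tspan2, Pllp, Ugt8a and Gpr37 under fluoxetine in WT mice and Tspan2 under lithium in HT mice, held in each of these.

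Without the 7 libraries of high olfactory bulb index or low mitochondrial share (HT fluoxetine male 5, HT lithium female 4 and 5, HT vehicle male 4 and WT fluoxetine female 1, 2 and 4), the counts were 14, 4 and 4. Replicate numbers did not pair the libraries. Over 68 same-numbered pairs the correlation of deviations ran from -0.41 to 0.52 (median -0.01), with 16 over 0.1, and the replicate block gave 13, 3 and 5 genes. Each of the 33 had at least 29 reads in each library.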
